A study of Mus musculus with 4 samples.

Results

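The genes of the major histocompatibility complex (MHC) and of antigen processing were followed with age in lower eyelids of both sexes of C57BL/6, an inbred mouse strain. They were taken as every gene whose symbol begins with H2-, except H2-Ke2 and H2-Ke6, together with 17 genes named singly. This gave 42 genes out of 15816 that any library listed, 25 of them H2- genes and 30 of them on chromosome 17. Of these, 32 passed the minimum of a mean of 1 RPKM over the 4 libraries, as did 12094 genes in all. RPKM (reads per kilobase of gene per unit of library size) is a level normalized for gene length and library size. The 42 genes were sorted by role into classical class I with B2m (4 genes), nonclassical class I (13), class I peptide generation and loading (13) and class II (11), and H2-K2, annotated as a transcribed pseudogene, was kept apart.

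The 4 libraries came from old females (2 years), young females (3 months), old males (2 years) and young males (3 months), with 1 library per group. All groups were wild type with no labelled treatment, and the number of animals behind a library is not in the labels. Since each group is 1 library, the differences between groups carry no replicate check and no p-value. A lower eyelid mixes haired skin, conjunctiva, meibomian glands, muscle, dermis and the leukocytes in them, and in such bulk tissue fewer cells of a type and less RNA per cell cannot be told apart.

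The old female library stood apart in its tissue markers. The summed level of 5 epidermal keratinocyte genes was 3256 RPKM in the old female library and 7755, 7003 and 6910 RPKM in the young female, old male and young male libraries. Krt5 and Krt14 made up most of each sum, with 1544 and 1685 RPKM in old and 4112 and 2248 RPKM in young females. Krt1, Krt10 and Lor differed far more, with 6.46, 17.5 and 3.02 RPKM in old and 490, 732 and 173 RPKM in young females. In both male libraries they were at 65.8 RPKM or more. The 2 conjunctival keratins summed to 879 RPKM in the old female library, against 3949 to 6232 RPKM in the other libraries. The 5 meibomian gland lipid enzymes summed to 10000 RPKM in the old female library and to 2855, 5208 and 6984 RPKM in the young female, old male and young male libraries. The young female library was thus the lowest in these enzymes. In the same order of libraries, 3 muscle genes summed to 598, 102, 329 and 122 RPKM, higher in the old library of each sex. Total coverage was 3.16, 3.78, 3.91 and 3.82 gigabases in the old female, young female, old male and young male libraries. Read depth is unknown, because the files give RPKM and base coverage and no reads.

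MHC class I molecules carry peptides made in the cell to CD8+ T cells. The proteasome cuts proteins into peptides, the TAP transporter moves these into the endoplasmic reticulum, and a loading complex fits them onto a class I heavy chain paired with beta-2-microglobulin (B2m). Interferons raise most of these genes and swap 3 catalytic subunits of the proteasome for inducible ones, which makes the immunoproteasome. MHC class II molecules carry peptides from endocytosed protein to CD4+ T cells and are made mainly by dendritic cells, B cells and macrophages, under the transactivator Ciita. At the ocular surface these genes are known from the barrier tissue's response to infection, allergy and dry eye.

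Class I and class II genes are known to share a promoter layout (X and Y boxes), and 5 promoters are shown: those of the main class I heavy chains, of their light chain, of the immunoproteasome subunit that faces Tap1, and of a class II chain. Sequences are the 250 bases before the annotated start, from RefSeq on GRCm38.p6, read 5′ to 3′ along the gene's own strand. They lie at chr17:34000334-34000583 on the minus strand (H2-K1), chr17:35262844-35263093 on the plus strand (H2-D1), chr2:122147437-122147686 on the plus strand (B2m), chr17:34187331-34187580 on the minus strand (Psmb9) and chr17:34287824-34288073 on the minus strand (H2-Aa). Capitals mark matches to the motifs named after the sequences.
H2-K1: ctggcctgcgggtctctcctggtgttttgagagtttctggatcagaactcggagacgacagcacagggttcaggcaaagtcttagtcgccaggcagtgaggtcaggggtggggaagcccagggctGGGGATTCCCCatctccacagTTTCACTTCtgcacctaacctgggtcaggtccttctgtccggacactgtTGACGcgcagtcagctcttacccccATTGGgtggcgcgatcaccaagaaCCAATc
H2-D1: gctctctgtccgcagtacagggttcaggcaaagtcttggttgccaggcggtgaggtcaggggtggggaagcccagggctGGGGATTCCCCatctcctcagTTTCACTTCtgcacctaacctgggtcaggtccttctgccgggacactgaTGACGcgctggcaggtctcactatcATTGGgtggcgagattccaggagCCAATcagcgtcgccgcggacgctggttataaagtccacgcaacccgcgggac
B2m: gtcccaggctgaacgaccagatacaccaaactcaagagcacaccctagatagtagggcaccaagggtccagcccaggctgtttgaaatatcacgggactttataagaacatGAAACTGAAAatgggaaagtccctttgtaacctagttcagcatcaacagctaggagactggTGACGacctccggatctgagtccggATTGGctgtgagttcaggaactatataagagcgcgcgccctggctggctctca
Psmb9: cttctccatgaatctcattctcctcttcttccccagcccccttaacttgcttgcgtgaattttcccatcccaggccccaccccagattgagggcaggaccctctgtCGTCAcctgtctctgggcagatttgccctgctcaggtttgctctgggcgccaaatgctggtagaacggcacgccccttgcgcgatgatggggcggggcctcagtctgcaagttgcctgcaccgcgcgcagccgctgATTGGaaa
H2-Aa: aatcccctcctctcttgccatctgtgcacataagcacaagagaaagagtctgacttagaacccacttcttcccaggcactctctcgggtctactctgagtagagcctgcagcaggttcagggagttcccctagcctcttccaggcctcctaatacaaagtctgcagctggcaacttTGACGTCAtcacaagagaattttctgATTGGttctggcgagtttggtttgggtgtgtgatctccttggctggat

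The motifs searched, on both strands, were TGACG, part of the X2 box, CCAAT, the Y box, GAANNGAAA, a core of the interferon-stimulated response element, a longer form of that core with GAAA on either side of NN (the 2 forms can overlap), and enhancer A of class I genes, as GGGGATT and CCC with 1 base between them. They were chosen after these sequences had been seen. RefSeq entries matched 29 of the 42 genes. H2-K1 and H2-D1 hold enhancer A, the shorter response element, 1 X2 site and 2 Y boxes in the same order, with enhancer A beginning 125 and 171 bases before the start. B2m has no enhancer A match, and holds the longer response element 139 bases, the X2 site 78 bases and the Y box 53 bases before its start. H2-Aa has the X2 site on both strands, overlapping as the palindrome 74 bases before the annotated start, and a Y box 48 bases before it. In Psmb9 the matches are farther apart, TGACG on the minus strand 144 bases and CCAAT 8 bases before the start, so this sequence does not show that layout. The annotated start of H2-Aa lies 52 bases from the end of the gene as the deposited tables give it.

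TGACG was found in 12 of the 29 promoters and in 17.8% of 32841 promoter windows of the same length. CCAAT was found in 20 of 29 and in 33.9% of windows, and both together in 11 of 29 and in 6.12%. By role, both together were found in 7 of 11 class I, 3 of 10 loading and 1 of 8 class II promoters. GAANNGAAA was found in 8 of 29 and in 6.31% of windows, and the longer form in 3 of 29 (B2m, H2-T23 and Ctss) and in 2.98%. Enhancer A was found in H2-K1, H2-D1 and H2-Q4 and in 24 windows in all (0.0731%). The starts of Psmb9 and Tap1 lie 226 bases apart on opposite strands, so their promoter windows overlap. The windows of Psmb8 and Psmb10 hold none of these letters. A match is a description of sequence, and binding was not measured.

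The analysed genes ranged widely in level. B2m was the highest, with 881 RPKM in old female, 824 RPKM in young female, 686 RPKM in old male and 651 RPKM in young male lids. Next came H2-K1 (mean 508 RPKM), Calr (395 RPKM), H2-D1 (362 RPKM) and Pdia3 (251 RPKM). The invariant chain gene Cd74, at 134 RPKM, was the highest class II gene, and H2-Aa and H2-Ab1 followed at 69.1 and 68.9 RPKM. The lowest analysed gene was the nonclassical H2-T10, at 1.05 RPKM.

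**Figure D1:**
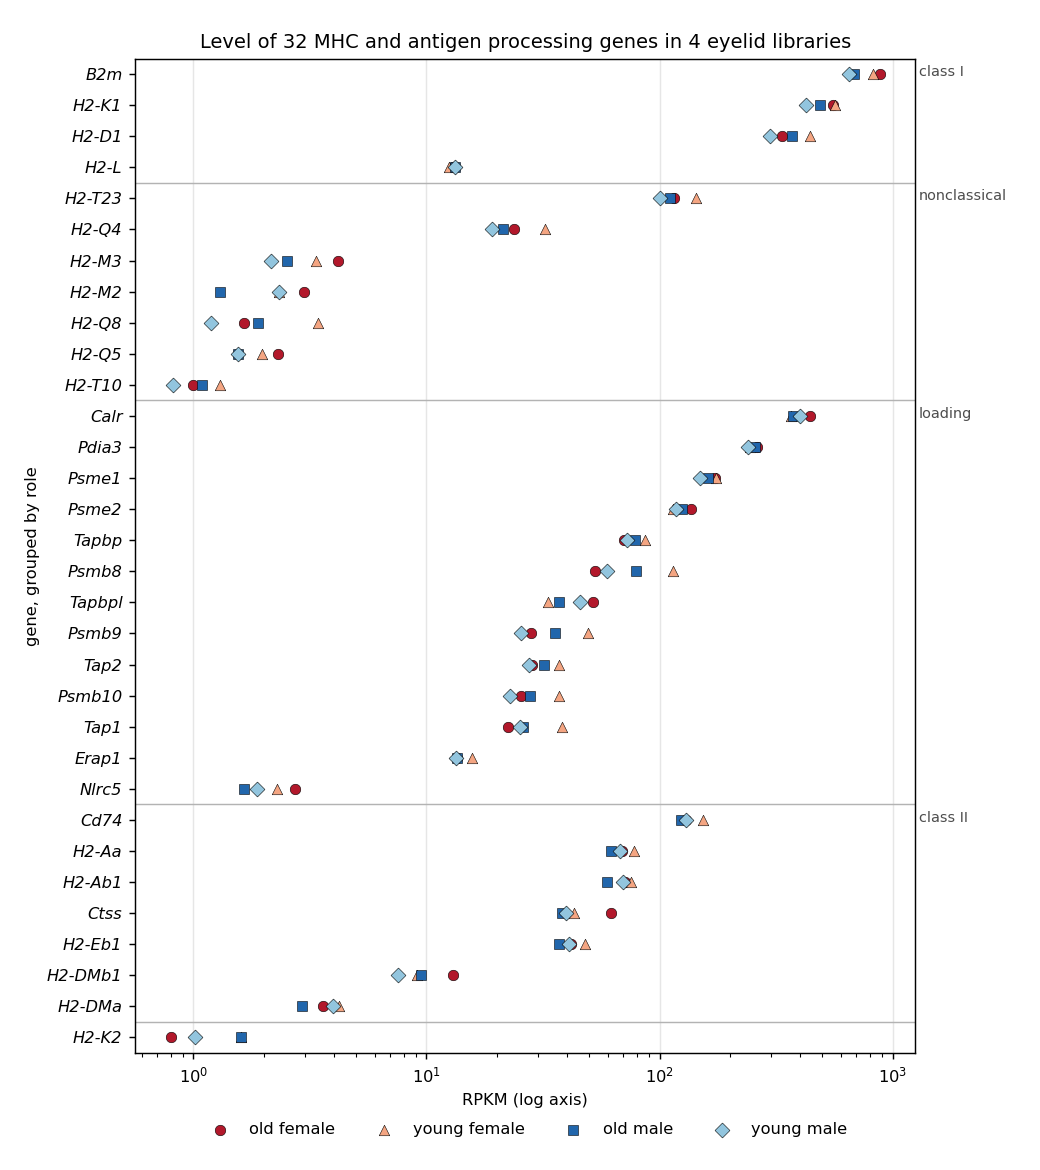
Level of each of the 32 analysed genes (RPKM, log axis) in the old female, young female, old male and young male library, with genes grouped by role and ordered by mean within a group. Each point is 1 library, so there are no error bars; B2m lies at 651 to 881 RPKM and the young female point is the rightmost for Psmb8, at 114 RPKM.

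The authors' counting sets how some of these values can be read. The bases counted per gene, recovered from coverage and RPKM, were 1646 for H2-K1 (chr17:33996012-34000333, minus strand) and 669 for H2-D1 (chr17:35263094-35267497, plus strand), of 2579 exonic bases that GENCODE gives H2-D1. H2-L was counted over 4 bases inside H2-D1 and H2-Q8 over 30 bases at the start of the gene GENCODE calls H2-Q6. C57BL/6 mice carry the b haplotype, which is known to lack an H2-L product. H2-L and H2-Q8 therefore give no level of a whole gene. More than 20% of the 50-base words of 7 genes also occur in other genes, up to 36.4% for H2-Q5 and 32.9% for H2-T10, so reads between these copies may have been divided or lost. How strand was used in counting is unknown here, and Psmb9 and Tap1 overlap each other's exons on opposite strands, as do Psmb8 and Tap2 with Gm20496.

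Psmb8, the inducible subunit that replaces Psmb5 in the proteasome, differed with age by more than 2-fold in females. It had 52.8 RPKM in the old female library and 114 RPKM in the young female, and 79.6 RPKM in the old male library and 59.4 RPKM in the young male. The log2 difference, taken on log2(RPKM + 1) throughout and so understated for low genes, was -1.10 for old against young females and 0.42 for old against young males. The old female library was the lowest of the 4 and the young female the highest. Psmb8 was the only 1 of 32 genes at least 2-fold lower in old females, where 3.37% of all analysed genes were, and 0 were at least 2-fold higher, against 5.33% of all genes. Counted by any amount, 20 of the 32 were lower in old females, against 40.9% of all genes, and 12 higher, against 59.1%. In males 12 were lower in old lids, against 53.0% of all genes, and 20 higher, against 47.0%. In males 0 of 32 were at least 2-fold higher or lower in old lids, against 0.827% and 0.215% of all genes.

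The other immunoproteasome subunits differed in the same directions. Psmb9, which replaces Psmb6, had 28.0 RPKM in old and 49.2 RPKM in young females, and 35.6 RPKM in old and 25.3 RPKM in young males. Psmb10, which replaces Psmb7, had 25.3 RPKM in old and 37.2 RPKM in young females, and 27.7 RPKM in old and 22.8 RPKM in young males. The log2 differences were -0.79 and -0.54 for old against young females, and 0.47 and 0.27 for old against young males. All 3 inducible subunits were thus lower in the old than in the young female library and higher in the old than in the young male library. The SD of the log2 difference over all analysed genes was 0.61 in females and 0.27 in males, so that Psmb8 and Psmb9 lay beyond 1 SD in both sexes, while Psmb10 lay within it in females and at it in males.

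The constitutive partners went the other way in females, and by smaller amounts in males. Psmb5 had 129 RPKM in old and 97.4 RPKM in young females, Psmb6 had 159 and 121 RPKM, and Psmb7 had 204 and 140 RPKM, in the same order. In old and young males Psmb5 had 105 and 119 RPKM, Psmb6 had 135 and 141 RPKM, and Psmb7 had 162 and 171 RPKM. The ratio of Psmb8 to Psmb5 was 0.408 in the old female and 1.17 in the young female library, which is 2.87-fold lower in old females. In males it was 0.760 in the old and 0.50 in the young library, 1.52-fold higher in old males. The inducible subunit exceeded its partner in the young female library alone of the 4. The ratio of Psmb9 to Psmb6 was 0.176 in old and 0.406 in young females (2.31-fold lower in old), and 0.263 in old and 0.179 in young males (1.47-fold higher in old). The ratio of Psmb10 to Psmb7 was 0.124 in old and 0.266 in young females (2.14-fold lower in old), and 0.171 in old and 0.133 in young males (1.29-fold higher in old). A ratio within a library does not depend on its scaling, but it can depend on the tissue mix, whose part in these ratios was not tested.

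**Figure D2:**
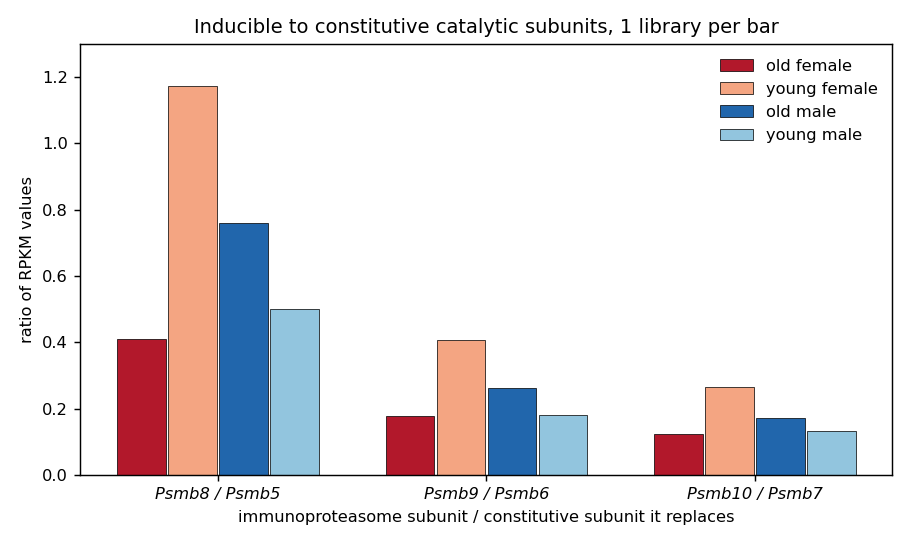
Ratio of the RPKM of each inducible catalytic proteasome subunit to that of the constitutive subunit it replaces, 1 bar per library, without error bars because each group is 1 library. The old female bar is the shortest of each set (0.408, 0.176 and 0.124) and the young female bar the tallest (1.17, 0.406 and 0.266).

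Tap1 and Tap2 encode the chains of the peptide transporter. Tap1 had 22.4 RPKM in old and 38 RPKM in young females, and 25.9 RPKM in old and 25.2 RPKM in young males, with log2 differences of -0.74 and 0.03. Tap2 had 28.3 RPKM in old and 36.9 RPKM in young females, and 32 RPKM in old and 27.4 RPKM in young males, with differences of -0.37 and 0.21. Tap1 and Psmb9, whose starts face each other across the promoter shown above, were both lower in old females, whereas in males the difference of Tap1 was near 0 and that of Psmb9 was 0.47. Tap1 per Tap2 was 0.792 in old and 1.03 in young females, and 0.809 in old and 0.919 in young males.

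Most other loading genes differed less. Tapbp, which bridges TAP and class I, had 70.2 RPKM in old and 86.4 RPKM in young females, and 78.3 RPKM in old and 72.8 RPKM in young males. Erap1, the aminopeptidase that trims peptides, had 13.5 RPKM in old and 15.7 RPKM in young females, and 13.5 RPKM in old and 13.4 RPKM in young males. The log2 differences in females were -0.30 and -0.20. Psme1 and Psme2, the subunits of the interferon-inducible proteasome activator, differed by -0.03 and 0.26 in females and by 0.11 and 0.09 in males, and 28.3% of the 50-base words of Psme2 occur in Psme2b. The chaperones Calr and Pdia3, which serve most glycoproteins, differed by 0.27 and 0.10 in females.

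Tapbpl, a peptide editor related to Tapbp, was higher in old females and lower in old males, as were Calr and Nlrc5 by smaller amounts. It had 51.7 RPKM in old and 33.4 RPKM in young females, and 37.1 RPKM in old and 45.7 RPKM in young males. Its log2 difference was 0.62 in females and -0.29 in males, so that the order of the libraries was the reverse of that of Psmb8. Nlrc5, the transactivator of class I genes, had 2.72 RPKM in old and 2.28 RPKM in young females, and 1.65 RPKM in old and 1.87 RPKM in young males. Its difference in females was 0.18 (0.01 with quantile normalization), where Psmb8, Psmb9, Tap1 and H2-D1 were lower in old lids. Of the 13 loading genes, 8 were lower and 5 higher in old females (median -0.20), beside 40.9% and 59.1% of all genes. In old males 3 were lower and 10 higher (median 0.10), beside 53.0% and 47.0% of all genes. Over all analysed genes the medians were 0.07 and -0.01.

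**Figure D3:**
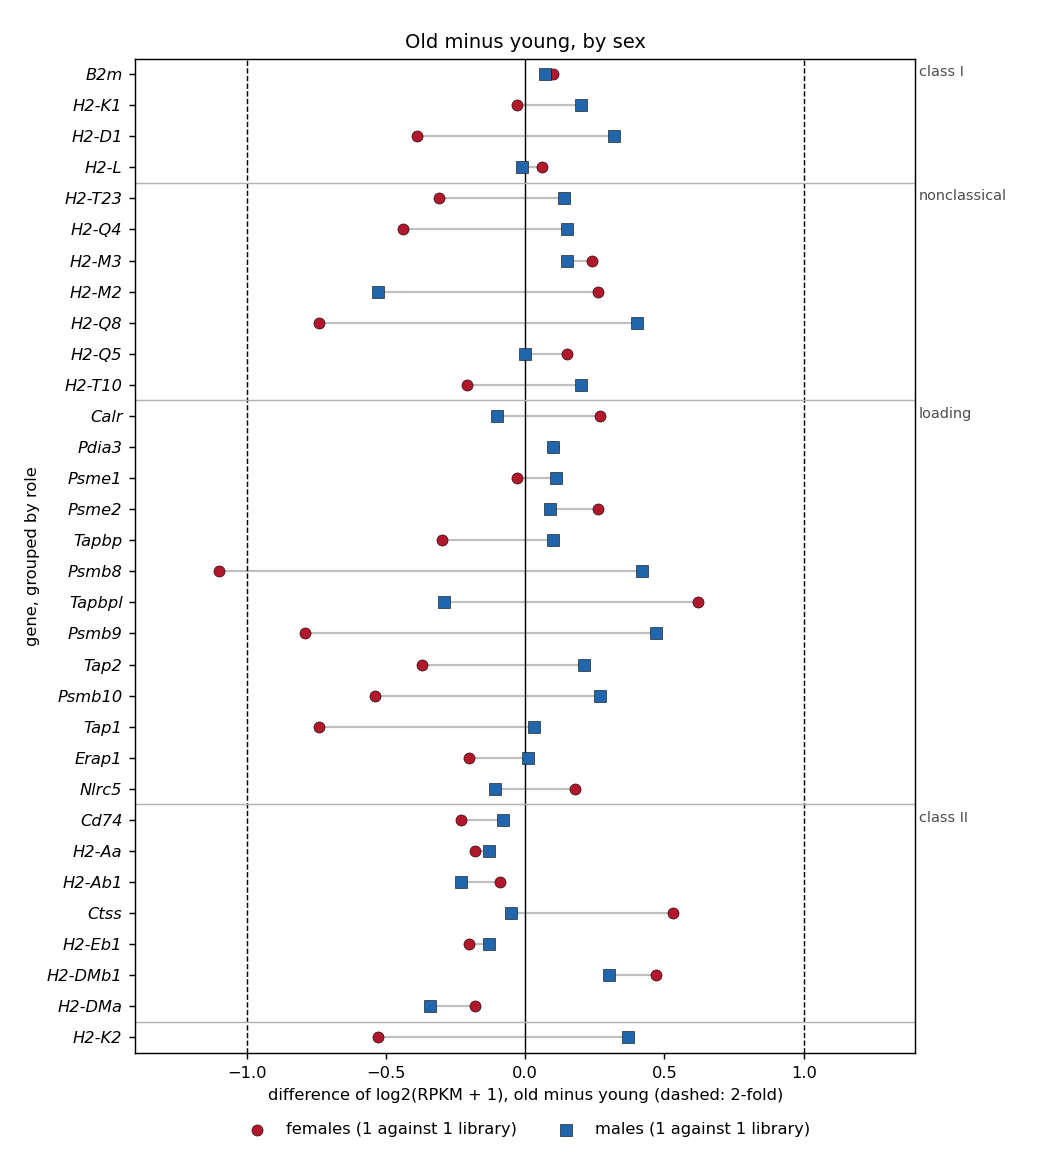
Log2 difference of RPKM + 1, old minus young, for each of the 32 analysed genes in females (circles) and males (squares), 1 library against 1, with dashed lines at 2-fold. Psmb8 lies at -1.10 in females and 0.42 in males, Tapbpl at 0.62 and -0.29, and the class II chains on the same side of 0 in both sexes.

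Other genes of the interferon pathway were taken from a list of 22 receptors, kinases and transcription factors of interferon and MHC regulation. Of these, 19 were lower and 3 higher in old females (median -0.24), beside 40.9% and 59.1% of all analysed genes, and 2 were at least 2-fold lower, beside 3.37%. Irf1, which drives immunoproteasome and class I genes after interferon, had 28.1 RPKM in old and 72.5 RPKM in young females, and 60.5 RPKM in old and 40.3 RPKM in young males. Irf9, the DNA-binding part of the type I interferon signal complex, had 6.86 RPKM in old and 15.0 RPKM in young females, and 8.74 RPKM in old and 8.02 RPKM in young males. Irf1 thus ordered the 4 libraries as Psmb8 did. That order is not particular to the pathway: the keratins Krt5 and Krt13 had it too, while the other epidermal and conjunctival markers did not. The part of interferon signals or of the tissue mix in it was not tested. In males the 22 genes divided evenly, 11 lower and 11 higher in old lids (median 0.02), beside 53.0% and 47.0% of all genes.

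T and NK cell markers are given beside these values. Their 12 genes summed to 25.5 RPKM in old and 36.9 RPKM in young females, and to 19.5 RPKM in old and 21.2 RPKM in young males. Gzma, a granule protease of cytotoxic cells, had 3.23 RPKM in old and 12.7 RPKM in young females, and 1.75 RPKM in old and 1.52 RPKM in young males. Gzma thus made up most of the difference of the sum in females. Of the 5 analysed T and NK cell genes, 4 were lower in old females, beside 40.9% of all analysed genes. Thy1, also expressed outside these cells, was higher, with 14.1 RPKM in old and 7.48 RPKM in young females. Cd8a was not listed in the old female library and was at 0.151 to 0.634 RPKM in the others. Epidermal markers were lower in old females as well (5 of 5 genes), by the values given at the outset. The part of these cells in the immunoproteasome and TAP values was not tested.

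The classical class I heavy chains differed little between libraries, with the highest library 1.33 times the lowest for H2-K1 and 1.48 times for H2-D1. H2-K1 had 553 RPKM in old and 565 RPKM in young females, and 488 RPKM in old and 424 RPKM in young males. H2-D1 had 337 RPKM in old and 441 RPKM in young females, and 372 RPKM in old and 298 RPKM in young males. The log2 differences for old against young were -0.03 and -0.39 in females and 0.20 and 0.32 in males. H2-D1 thus had the signs of the immunoproteasome genes, while the small H2-K1 difference in females changed sign, to 0.16, with quantile normalization. B2m, the light chain of all class I molecules, was 0.10 higher in old females and 0.07 higher in old males, which became -0.06 with quantile normalization. H2-L, read over its 4 bases, lay between 12.5 and 13.3 RPKM in all libraries.

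The balance of the chains also differed. H2-D1 per H2-K1 was 0.608 in old and 0.781 in young females, and 0.762 in old and 0.701 in young males. B2m per summed H2-K1 and H2-D1 was 0.990 in old and 0.819 in young females, and 0.798 in old and 0.902 in young males. The old female library therefore had the least H2-D1 for its H2-K1 and the most light chain for its heavy chains. H2-D1 was counted over part of its exons, so that these ratios compare libraries and not the amounts of the 2 chains.

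Of the 13 nonclassical class I genes, 7 were analysed. H2-T23, which encodes Qa-1 and presents to NK and T cell receptors, was the highest, with 115 RPKM in old and 143 RPKM in young females, and 111 RPKM in old and 101 RPKM in young males. H2-Q4 had 23.6 RPKM in old and 32.4 RPKM in young females, and 21.3 RPKM in old and 19.1 RPKM in young males. Both were lower in old females (-0.31 and -0.44) and higher in old males (0.14 and 0.15), with the young female library the highest. H2-M3, which presents formylated peptides, was ordered differently, with 4.16 RPKM in old and 3.36 RPKM in young females, and 2.51 RPKM in old and 2.16 RPKM in young males. H2-M2 had 2.99 RPKM in old and 2.33 RPKM in young females, and 1.3 RPKM in old and 2.33 RPKM in young males.

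The remaining analysed nonclassical genes were low. H2-Q5 had 2.31 RPKM in old and 1.97 RPKM in young females, and 1.55 RPKM in both male libraries. H2-T10 had 0.992 RPKM in old and 1.3 RPKM in young females, and 1.09 RPKM in old and 0.819 RPKM in young males, and 31.7% of its 50-base words occur in H2-T22. H2-Q8, read over 30 bases, had 1.65 RPKM in old and 3.42 RPKM in young females, and 1.89 RPKM in old and 1.19 RPKM in young males. Of the 7, 4 were lower in old females (median -0.21), beside 40.9% of all analysed genes. In old males 2 were lower (median 0.15), beside 53.0% of all genes. The median in females was -0.03 without H2-Q8, -0.37 with a minimum mean of 5 RPKM and near 0 without a filter on low values, so no direction is read from it. H2-K2 had 0.799 RPKM in old and 1.60 RPKM in young females, and 1.61 RPKM in old and 1.02 RPKM in young males, so that it too was lower in old females (-0.53) and higher in old males (0.37).

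The class II chains were slightly lower in old lids of both sexes. H2-Aa, the alpha chain of I-A, had 68.7 RPKM in old and 77.8 RPKM in young females, and 62.1 RPKM in old and 67.9 RPKM in young males. H2-Ab1, its beta chain, had 71.0 RPKM in old and 75.8 RPKM in young females, and 59.3 RPKM in old and 69.7 RPKM in young males. H2-Eb1, the beta chain of I-E, had 41.6 RPKM in old and 47.9 RPKM in young females, and 37.1 RPKM in old and 40.7 RPKM in young males. The b haplotype is known to lack the I-E alpha chain, so H2-Eb1 RNA has no partner at the cell surface. Cd74, the chaperone of class II, had 130 RPKM in old and 153 RPKM in young females, and 124 RPKM in old and 130 RPKM in young males.

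These 4 genes kept nearly the same proportions in every library. H2-Aa per H2-Ab1 was 0.967 in old and 1.03 in young females, and 1.05 in old and 0.974 in young males. H2-Eb1 per H2-Ab1 was 0.585 and 0.633 in old and young females, and 0.625 and 0.584 in old and young males. Cd74 per H2-Ab1 was 1.83 and 2.02 in old and young females, and 2.08 and 1.87 in old and young males. The log2 differences of the 4 genes lay between -0.23 and -0.08 in both sexes, within 1 SD of all genes.

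The endosomal genes of the class II pathway differed among themselves. Ctss, the protease that trims the invariant chain, had 62.1 RPKM in old and 42.8 RPKM in young females, and 38.3 RPKM in old and 39.6 RPKM in young males. H2-DMb1, the beta chain of the peptide exchanger DM, had 13.0 RPKM in old and 9.12 RPKM in young females, and 9.50 RPKM in old and 7.54 RPKM in young males. H2-DMa, the alpha chain of DM, had 3.60 RPKM in old and 4.21 RPKM in young females, and 2.92 RPKM in old and 3.96 RPKM in young males. H2-DMa was lower in old lids of both sexes, as the class II chains were, and H2-DMb1 was higher in both, at 0.47 and -0.18 in females and 0.30 and -0.34 in males for H2-DMb1 and H2-DMa. Of the 50-base words of H2-DMb1, 22.7% occur in H2-DMb2, and H2-DMa overlaps an exon of Brd2 on the other strand. Of the 7 analysed class II genes, 5 were lower in old females (median -0.18), beside 40.9% of all analysed genes. In old males 6 were lower (median -0.13), beside 53.0% of all genes.

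Markers of the cells that carry class II were read beside these values. The 9 macrophage genes summed to 317 RPKM in old and 165 RPKM in young females, and to 173 RPKM in old and 210 RPKM in young males. All 8 analysed macrophage genes were higher in old females, beside 59.1% of all analysed genes. Lyz2 was the largest part of the sum, with 165 RPKM in old and 57.1 RPKM in young females. Macrophage markers thus ran with Ctss and H2-DMb1 in females rather than with the class II chains. In males the list divided evenly, 4 genes higher and 4 lower in old lids (median -0.03), beside 47.0% and 53.0% of all genes. The lower macrophage sum of old males came largely from Lyz2, with 58.4 RPKM in old and 90.6 RPKM in young males. H2-DMb1 differed by 0.30 and Ctss by -0.05 in males. The 8 Langerhans and dendritic cell genes summed to 5.42 RPKM in old and 6.17 RPKM in young females, and to 2.94 RPKM in old and 6.46 RPKM in young males, and Clec9a was listed in no library. Cd207, the Langerhans cell lectin, had 0.278 RPKM in old and 2.20 RPKM in young females, and 0.525 RPKM in old and 1.70 RPKM in young males. The list did not move as one: Itgax, an integrin of dendritic cells and macrophages, had 3.70 RPKM in old and 2.86 RPKM in young females, and 1.81 RPKM in old and 3.71 RPKM in young males, and Cd209a was higher in old lids of both sexes, at no more than 0.725 RPKM. Of the B cell genes, Cd79a and Ms4a1 were listed in no library, and Cd79b was listed in all 4, at 0.913 RPKM in old and 1.26 RPKM in young females, and 1.17 RPKM in old and 1.27 RPKM in young males. The 3 pan-leukocyte genes summed to 23.5 RPKM in old and 20.9 RPKM in young females, and to 16.9 RPKM in old and 22.4 RPKM in young males. Ctss was highest in the old female library, which also had the highest macrophage sum. Cd68 of that list was instead highest in young males, at 58.5 RPKM, against 46.5 RPKM in old females. The class II chains were highest in the young female library. The part of these cells in the values of Ctss or of the class II chains was not tested.

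In young lids most of the genes were higher in females than in males. The comparison shares the young female library with that of old and young females, so these comparisons are not independent. Of the 32 genes, 27 were higher in young females than in young males, against 47.5% of all analysed genes, and 5 were lower, against 52.5%: Calr, H2-L, H2-M2, Psme2 and Tapbpl. The median log2 difference was 0.24, beside -0.01 over all genes. Psmb8, Psmb9 and Psmb10 were 0.93, 0.93 and 0.68 higher, H2-Q4 0.73, H2-D1 and Tap1 0.57, H2-T23 0.51 and H2-K1 0.41. H2-Q8 was at least 2-fold higher, at 1.0, over its 30 bases, where 0.364% of all genes were, and 0 genes were at least 2-fold lower, against 0.976% of all genes.

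All 7 analysed class II genes were higher in young females than in young males, by 0.07 to 0.25. Of the 22 interferon and MHC regulators, 19 were higher in young females (median 0.11), beside 47.5% of all genes, with Irf1 and Irf9 each at 0.83. The T and NK cell sum was 36.9 RPKM in young females and 21.2 RPKM in young males, with Gzma at 12.7 and 1.52 RPKM. Of its 5 analysed genes, 3 were higher and 2 lower in young females. The macrophage sum was 165 and 210 RPKM, with Lyz2 at 57.1 and 90.6 RPKM. Yet 5 of the 8 analysed macrophage genes were higher in young females and 3 lower (median 0.07), beside 47.5% and 52.5% of all genes. All 5 meibomian gland enzymes were at least 2-fold lower in young females, beside 0.976% of all genes. Fewer gland cells and less of this RNA per cell cannot be told apart here. The part of the tissue mix in the values was not tested.

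In old lids the sexes differed less in the immunoproteasome genes and with the other sign. Psmb8 was -0.58, Psmb9 -0.33, Tap1 -0.20 and Psmb10 -0.12 in old females against old males. B2m was 0.36 higher in old females, close to the 0.34 of young females against young males. H2-M3 was higher in females at both ages, by 0.56 in old and 0.47 in young lids. Nlrc5 (0.49), Tapbpl (0.47), H2-M2 (0.79) and Ctss (0.68) were also higher in old females than in old males. Of the 32 genes, 20 were higher in old females, against 60.6% of all genes, 12 were lower, against 39.4%, and 0 were 2-fold higher or 2-fold lower, against 1.78% and 1.98%.

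**Figure D4:**
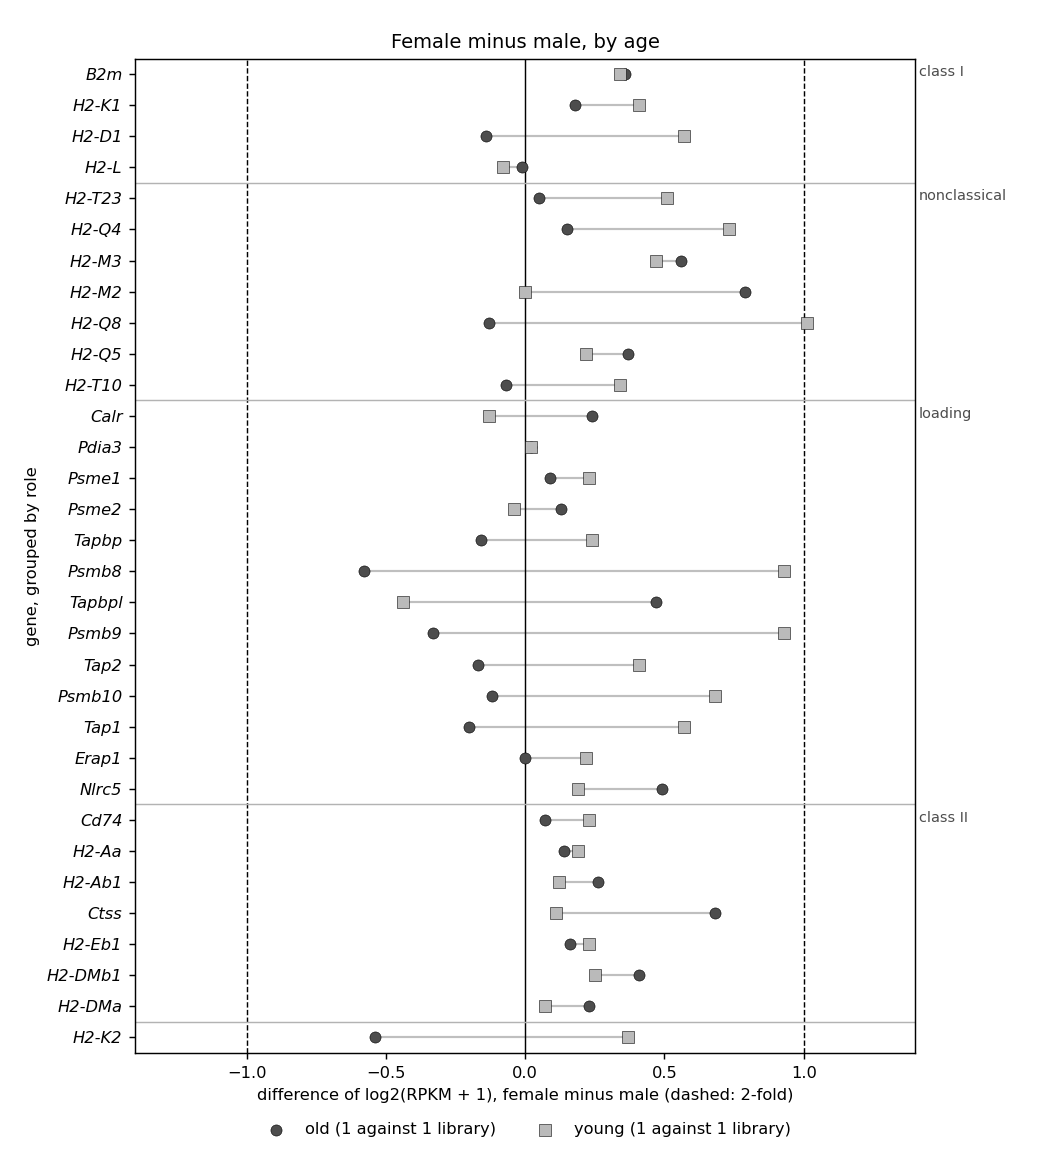
Log2 difference of RPKM + 1, female minus male, for each of the 32 analysed genes in old (circles) and young (squares) lids, 1 library against 1, with dashed lines at 2-fold. The class II genes lie right of 0 at both ages, and Psmb8 lies at -0.58 in old and 0.93 in young lids.

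Across the 4 libraries, 19 of the 32 genes were highest in the young female, where 28.6% of all genes were, 11 in the old female (46.5% of all genes), 1 in the old male (13.3%, H2-K2) and 1 in the young male (11.6%, H2-L). The young male library was the lowest for 15 genes and the old male for 9, while both female libraries were the lowest for 4 each. The matching shares over all genes were not computed, so nothing is read from these counts of the lowest library. The age difference had opposite signs in the sexes for 22 of the 32 genes, against 61.5% of all genes. It was also at least 1 apart on the log2 scale for Psmb8, Psmb9 and H2-Q8 (3 of 32), against 10.2% of all genes.

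A fit over all 4 libraries with age and sex as terms, which has 1 residual degree of freedom, called no gene. With limma and Benjamini-Hochberg adjustment, 0 of 12094 genes (0.0%) passed for age (lowest adjusted p = 1) and 0 (0.0%) for sex (lowest adjusted p = 0.156), hence 0 of the 32. At an unadjusted p under 0.05 stood 355 genes for age and 74 for sex. Of the 32, H2-M3 was the only 1 among these, for sex, at a log2 difference of 0.51 ± 0.17 (SE, female minus male averaged over ages, limma adjusted p = 1). For age the lowest p was that of H2-DMb1, at 0.38 ± 0.17 (SE, limma adjusted p = 1), higher in old lids of both sexes. The residual of this fit is how far the age differences of females and males lie apart, so opposite differences in the sexes, as for Psmb8, cannot be called by it.

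The 10 genes below the minimum mean were low. Ciita, the class II transactivator, had 0.493 RPKM in old and 0.619 RPKM in young females, and 0.386 RPKM in old and 0.508 RPKM in young males. H2-Oa and H2-Ob, the chains of the DM inhibitor DO, lay between 0.129 and 0.552 RPKM. H2-DMb2, a second DM beta chain, was not listed in old females and had 1.0 RPKM in young females, and had 0.324 RPKM in old and 0.925 RPKM in young males. The old libraries were thus below the young ones of the same sex for Ciita and H2-DMb2. Of the nonclassical genes, H2-T24 had 1.19 RPKM in old and 0.819 RPKM in young females, and 0.579 RPKM in old and 0.740 RPKM in young males. H2-Q10, known as a liver product, had 0.703 RPKM in old and 0.144 RPKM in young females, and 0.311 RPKM in old and 0.247 RPKM in young males. Both were highest in the old female library. H2-Q2 lay between 0.30 and 0.483 RPKM in the 4 libraries. H2-M5 was listed in neither old library and in both young ones (0.265 RPKM in females, 0.221 RPKM in males), H2-Q7 in the young female (0.220 RPKM, over 12 bases) and H2-Bl in the young male (0.167 RPKM).

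The authors' deposited tables of 2-fold comparisons hold mainly such low genes of the set. The set holds 42 of the 15816 genes that any library listed. In females the authors' deposited table of lower genes has 750 entries, 5 of them (0.667%) from the set. H2-DMb2 has a signed fold of -9.84 in the authors' deposited table, with 0.102 RPKM in old and 1.0 RPKM in young females. H2-Oa, H2-Q8 and H2-K2 have signed folds of -3.31, -2.08 and -2.00 there, and H2-M5 is listed at 0 in old females. The authors' deposited table of genes higher in old females has 1983 entries, of which H2-Q10 (fold 4.90) belongs to the set (0.0504%). In males the authors' deposited table of lower genes has 315 entries, 4 of them (1.27%) from the set. These are H2-DMb2 (-2.86), H2-M5 (-2.82), H2-Bl (-2.52) and H2-Oa (-2.06). That of higher genes in males has 673 entries and 0 of the set. H2-DMb2, H2-M5 and H2-Oa were thus lower in old lids of both sexes, at levels of about 1 RPKM or less. Psmb8 is in none of the authors' deposited tables, although its ratio of old to young RPKM in females was 0.462, and the criteria of those tables beyond the fold are unknown here.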

How the data were processed

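RNA was measured in 4 lower eyelid libraries, 1 per age and sex. The authors deposited RPKM values, which are scaled to gene length and library size. Per the submitters' processing notes, the tools were TopHat and Cufflinks and the build mm10, with no versions or roles. How reads were counted, on which strand and over which gene models is not stated in the sources used. The second value column, a raw count per the file headers, was read as coverage: the summed base coverage deposited by the authors, divided by RPKM and 1 factor per library, gave a whole counted length within 0.02 bases for 98.1% of 12330 genes. No count test was run, and no counting interval is given. The authors' deposited Cyber-T tables hold the RPKM of each age, a fold with a sign (a score) and a p-value per gene, of which levels and folds are quoted. All 6057 RPKM values compared equal those of the expressed gene tables.

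A gene missing from a table was set to 0. After 2 symbols on more than 1 row were left out, genes whose 4 values averaged at least 1 RPKM were kept, 1 was added as pseudocount, and differences of at least 1 on the log2 scale (2-fold) were counted, as a description. Age and sex effects were estimated by limma 3.58.1 under R 4.3.3 (moderated variances with trend, Benjamini-Hochberg at 0.05). The code was tested on simulated data, where calls were required only at low noise, so that test does not give the sensitivity of the fit here. The limma p-values reflect the spread of these 4 libraries alone, which is how far the age differences of the sexes lie apart. With 1 library per group, a technical part of that spread cannot be told apart. Tables were handled in Python 3.11.15 with pandas 2.3.3 and numpy 2.4.6. Shared 50-base words and exon overlaps were found in GENCODE vM21 transcripts. All analysed genes of the set could be named, and the genes, lists and markers were chosen with earlier results of these data known. Alternatives were other pseudocounts, filters, scalings and values for missing genes, leaving out genes counted over fewer than 100 bases (added after the data had been seen), and limma with 1 term or with a library left out.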

Additional observations from a re-analysis of the deposited data

Results flagged for a closer look

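The age difference had opposite signs in the sexes and lay at least 1 apart on the log2 scale for 3 genes of the set, 3 of 32 beside 10.2% of all analysed genes. For Psmb8, females minus males, the age differences were -1.52 apart, with -1.10 in females and 0.42 in males. For Psmb9 they were -1.27 apart, with -0.79 in females and 0.47 in males. For H2-Q8, counted over 30 bases, they were -1.14 apart, with -0.74 in females and 0.40 in males. With 1 library per group these differences between the sexes were not tested. Epidermal, conjunctival, gland and T and NK cell markers also differed between the female libraries, and their part in these values was not tested.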

How the results depend on the processing

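No paired analysis was possible because each group has 1 library, and the shared replicate number marks no pair. For old against young females, 2 genes of the set were at least 2-fold lower with a pseudocount of 0.1 (Psmb8 and H2-Q8) and 2 without a filter on low values (Psmb8 and H2-DMb2), instead of 1. For young females against young males, 0 were at least 2-fold higher with a pseudocount of 5, with a mean of at least 5 RPKM, or without genes counted over fewer than 100 bases, instead of 1. For old females against old males, 1 was at least 2-fold higher with a pseudocount of 0.1 (H2-M2), instead of 0. With 3 libraries a fit with both terms has no residual, so leaving out each library in turn used limma with 1 term, and both choices changed together: it called 0 to 153 genes for age, 153 without the old male library, and 0 to 25 for sex, 3 without the old female and 25 without the young female. With all 4 libraries and sex as the only term limma called 3 genes, and with age as the only term 0. None of the 32 was called under any of these fits. The cause was not tested. Of 864 log2 differences of single genes under other settings, 33 moved by more than the median residual SD of 0.162 and 10 changed sign, 6 with median scaling and 4 with quantile normalization. H2-Q5 in females was 0.15 and became -0.04 with quantile normalization. Of 128 group medians, 5 moved and 2 changed sign, both of them the classical class I median in females (0.01, against -0.06 with median scaling and -0.03 without H2-L). A single library per group, unknown read depth and the lowest coverage in the old female library limit all values, those of low genes most.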

Other observations

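The constitutive proteasome, which supplies class I peptides where no immunoproteasome is formed, was higher throughout in the old female library. All 15 genes of its list were higher in old than in young females (median log2 difference 0.42), beside 59.1% of all analysed genes, and none was 2-fold apart. Their summed level was 2171 RPKM in old and 1689 RPKM in young females, and 1922 RPKM in old and 1956 RPKM in young males. In young lids 14 of 15 were lower in females than in males (median -0.26), beside 52.5% of all genes. In males 10 of 15 were lower in old lids (median -0.06), beside 53.0% of all genes.

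The lysosomal genes that prepare antigen for class II were not ordered as the class II chains were. Of 10 genes, 7 were higher in old females (median 0.46), beside 59.1% of all genes, and 8 were lower in old males (median -0.22), beside 53.0%. Ctsb and Ctsl, lysosomal cysteine proteases, were 0.66 and 0.62 higher in old females, and Ctsh, a related aminopeptidase, had 86.5 RPKM in old and 157 RPKM in young females, a difference of -0.85. Holocrine gland cells also express lysosomal genes, and the 5 gland markers were at least 2-fold higher in old females, but their part in these values was not tested. Of 7 class I-like genes outside the H2 region, 5 were analysed. Cd1d1, which presents lipids to NKT cells, had 10 RPKM in old and 2.83 RPKM in young females, and 4.30 RPKM in old and 6.78 RPKM in young males. Fcgrt, the neonatal Fc receptor chain, had 18.7 RPKM in old and 6.36 RPKM in young females, and 8.94 RPKM in old and 7.84 RPKM in young males. Both were at least 2-fold higher in old females, beside 5.33% of all genes, whereas Mr1, which presents vitamin B metabolites to MAIT cells, had 19.5 RPKM in old and 30.7 RPKM in young females.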
